A study of Rattus norvegicus with 24 samples.

Results

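The comparison described here sets the paraventricular nucleus (PVN) against the supraoptic nucleus (SON) of the spontaneously hypertensive rat (SHR), an inbred strain that develops high blood pressure. It takes 8 of the 24 arrays of the series, chosen by their titles: PVN arrays 1, 2, 4 and 5 and SON arrays 1 to 4, with an unnumbered title counted as number 1. Every array carried RNA pooled from 5 male SHR rats aged 10 to 13 weeks, so n counts pools, and the design text calls each chip an independent biological replication. Both groups share strain, sex, age range and an untreated state as far as the labels say, and both lack a normotensive counterpart here, so no difference below is a difference between strains. How the borders of the nuclei were set at dissection, and whether the same rats gave both nuclei, is not given in the sources used here. A further pool labelled PVN (PVN array 3) was left out by the rule that chose the arrays, because its Gapdh 3′ to 5′ ratio stood apart and its profile resembled SON, and results are also given with it.

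Both nuclei belong to the hypothalamo-neurohypophysial system. Their large magnocellular neurons make vasopressin or oxytocin, send axons to the posterior pituitary and release both hormones into the blood. The PVN holds in addition small parvocellular neurons, which secrete releasing hormones such as corticotropin-releasing hormone into the portal blood of the anterior pituitary, and neurons that project to the brainstem and spinal cord and act on sympathetic outflow. The PVN lies along the wall of the third ventricle, which is lined by ependymal cells with beating cilia. The SON lies at the ventral surface of the brain beside the optic tract, close to the pia mater, and is more uniformly magnocellular.

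The values for which PVN array 3 was left out are given here as a description, with no test, and lend no independent support to leaving it out. The ratio of signal from the 3′ to the 5′ end of the Gapdh transcript, a measure of RNA integrity, was 3.33 on it, against 1.07 to 1.26 on the other PVN arrays and 1.21 to 1.32 on the SON arrays. For beta-actin, which the rule does not name, the ratio on the same array was 7.01, against 2.97 to 3.86 on the other PVN arrays and 2.58 to 3.86 on the SON arrays. Its profile had a mean Spearman correlation over probe sets of 0.912 with the other PVN arrays and 0.936 with the SON arrays. Between the 4 PVN and 4 SON pools that were compared, the Gapdh ratio averaged 1.19 ± 0.085 and 1.25 ± 0.050 (SD, n = 4 each; two-sided exact permutation test, p = 0.371, adjusted over both ratios 0.4), where the smallest p the design allows is 0.0286. The actin ratio averaged 3.31 ± 0.402 and 2.91 ± 0.632 (exact permutation p = 0.4, adjusted 0.4).

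Of 14217 genes, 2381 passed limma's test at a Benjamini-Hochberg adjusted p under 0.05 (16.7%), of which 1216 were higher in PVN (8.55%) and 1165 lower (8.19%). At least 1 on the log2 scale separated the nuclei for 754 of them. The median log2 difference over all genes, PVN minus SON, was 0.02. With PVN array 3 in the fit 1532 genes passed (10.8%), 879 higher (6.18%) and 653 lower (4.59%), and 1480 genes passed both ways. Fitted alone without PVN array 3, PVN and SON arrays gave 1886 genes that passed. When PVN and SON arrays were fitted alone with PVN array 3, a fit added after the data were seen, 589 genes passed. Of 31042 probe sets, 3937 passed (12.7%), 2004 higher (6.46%) and 1933 lower (6.23%). With PVN array 3 the probe sets numbered 2516 (8.11%), 1448 higher (4.66%) and 1068 lower (3.44%). PVN and SON pools did not overlap for 3664 genes (25.8%). The numbers of higher and lower genes traded places with the array set used: there were 876 higher and 1468 lower without PVN array 1, and 1379 higher and 921 lower without PVN array 4. Every gene named below as having risen or fallen also passed with PVN array 3 unless its paragraph says otherwise. The p-values measure the spread between pools of the same structure, estimated over all 18 SHR arrays of the fit. These include 5 pools of the neurointermediate lobe and 5 of the rostral ventrolateral medulla. In such bulk RNA fewer cells of a type and less RNA per cell cannot be told apart.

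Most releasing hormones and other peptides of parvocellular neurons were higher in PVN. Of 10 measured, 7 rose and none fell, with a median log2 difference of 1.67. Values are given throughout as array intensity, in the order PVN arrays 1, 2, 4 and 5, against SON arrays 1 to 4. Crh, the corticotropin-releasing hormone that drives the adrenal stress axis, had 399.5, 393, 514 and 426 in PVN, against 14.6, 19.1, 16.5 and 19.6 in SON. Every PVN pool was more than 10 times as bright as any SON pool (log2 difference 4.65, SE 0.542, adjusted p = 2.4e-06, and 3.96 with PVN array 3, adjusted p = 0.000937). The SON values were under the array medians, and with 64 added the difference was 2.61. Trh, thyrotropin-releasing hormone, had 806, 762, 997 and 1183 in PVN, against 47.7, 52, 84.6 and 71.7 in SON, again without overlap (log2 difference 3.90, SE 0.347, adjusted p = 4e-08, and 3.37 with PVN array 3, adjusted p = 0.000186). Sst, somatostatin, which restrains growth hormone release and is made by periventricular neurons, had 2335, 2615, 2879 and 3031 in PVN, against 115, 152, 102 and 89.4 in SON (log2 difference 4.60, SE 0.275, adjusted p = 9.57e-11, and 3.77 with PVN array 3, adjusted p = 0.000482). On PVN array 3 these genes were near the SON pools, with 38.1 for Crh, 138 for Trh and 143 for Sst.

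Adcyap1, which encodes the peptide PACAP, had 167, 167, 174 and 177 in PVN, against 43.5, 55.1, 40.3 and 34.9 in SON (log2 difference 2.01, SE 0.182, adjusted p = 5.31e-08). The enkephalin precursor Penk had 1174, 896, 717 and 838 in PVN, against 204, 338, 229 and 216 in SON (log2 difference 1.90, SE 0.199, adjusted p = 5.34e-07). Both passed with PVN array 3 as well, at 1.81 (adjusted p = 3.31e-05) and 1.69 (adjusted p = 0.000121). The other risers, named after their values were seen, were Ghrh, growth hormone-releasing hormone, at 33.4 to 44 in PVN and 11 to 18 in SON (log2 difference 1.45), and Cartpt, the precursor of the CART peptides, at 3118 to 3628 and 1846 to 2254 (0.73). Neither passed with PVN array 3 (adjusted p = 0.0552 and 0.433), which left 5 higher, also when PVN and SON arrays were fitted alone with it. Neurotensin (Nts) did not pass, with 131, 73.9, 112 and 95.6 in PVN, against 50.3, 79.8, 63.3 and 97 in SON (log2 difference 0.53, SE 0.304, adjusted p = 0.301), nor did Tac1 (0.78, adjusted p = 0.415) and Gnrh1 (−0.78, adjusted p = 0.428), named after their values were seen.

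**Figure D1:**
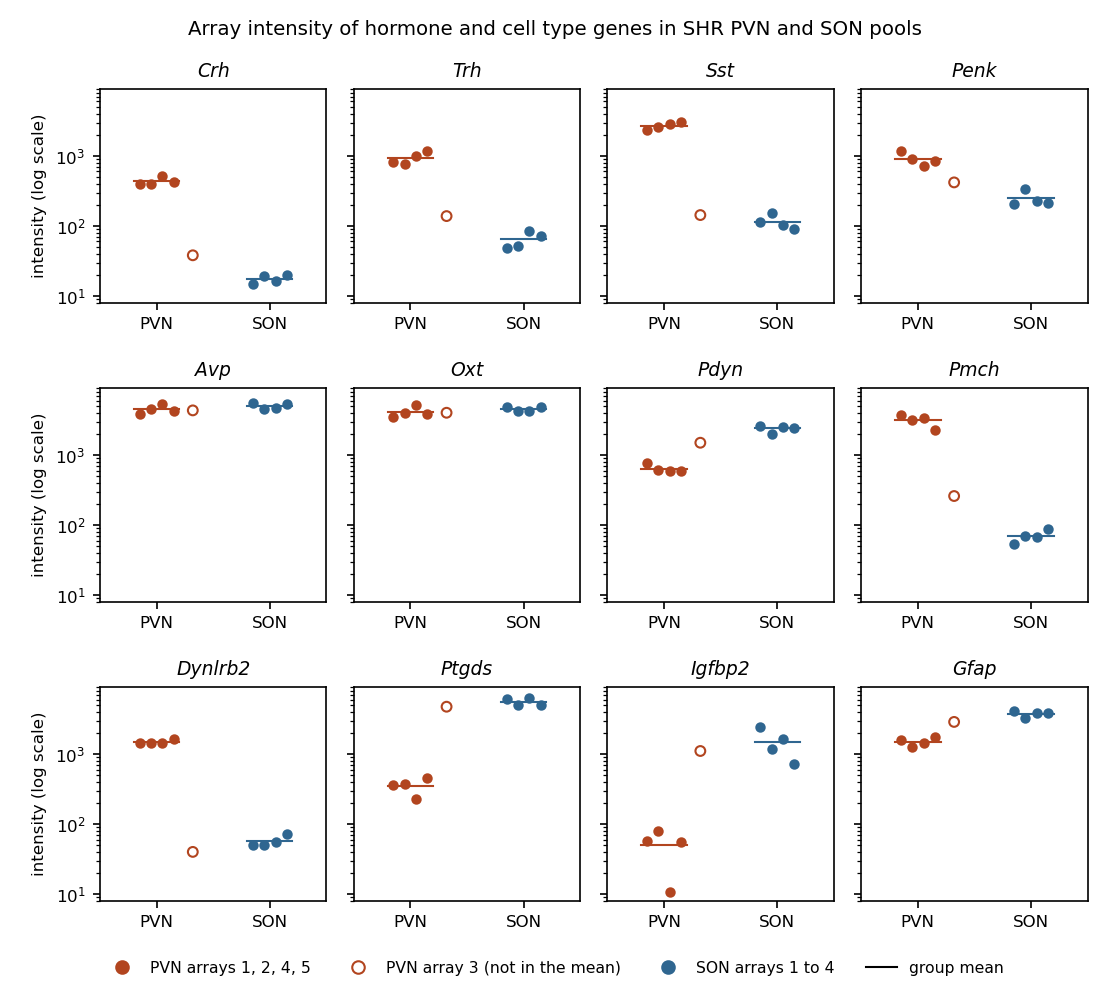
Array intensity on a log scale of 12 genes, each point 1 pool of 5 rats, with PVN left and SON right and bars at the mean of the 4 pools. Crh, Trh, Sst and Pmch were higher in all 4 PVN pools, Pdyn, Ptgds, Igfbp2 and Gfap were lower, Avp and Oxt overlapped, and PVN array 3 (open circle) lay with or near the SON pools for Dynlrb2, Sst and Ptgds.

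The hormones that define both nuclei did not separate them. Avp, the vasopressin gene, had 3893, 4549.8, 5284 and 4200.1 in PVN, against 5609.9, 4592, 4688 and 5335 in SON (log2 difference −0.17, SE 0.154, adjusted p = 0.573). Oxt, the oxytocin gene, had 3439, 4014, 5234 and 3892 in PVN, against 4795, 4183, 4252 and 4822 in SON (log2 difference −0.12, SE 0.313, adjusted p = 0.869). The groups overlapped for both. The highest intensity of any probe set was 4581 to 5284 on these PVN arrays and 5603 to 7030 on the SON arrays, so both genes lay close to the top of the PVN arrays' range, where a difference may be understated.

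Pdyn, whose opioid products dynorphins are co-released with vasopressin, was lower in every PVN pool, at 768, 610.3, 586 and 586 in PVN, against 2581, 2019, 2551 and 2438 in SON (log2 difference −1.90, SE 0.182, adjusted p = 1.22e-07, and −1.64 with PVN array 3, adjusted p = 0.000269). That was 3.73-fold higher in SON. PVN array 3 lay between the groups at 1497. The list of 10 magnocellular hormones and co-peptides also holds Giot1, a zinc finger gene and not a peptide precursor. Of these 10 genes, 1 rose, 3 fell, Giot1 among them, and 6 did not pass (median −0.15). With PVN array 3, 2 fell, Giot1 again among them, and none rose. Giot1 had 8.38, 26, 6.43 and 10.4 in PVN, against 39, 74.3, 73 and 31.5 in SON (log2 difference −2.20, SE 0.424, adjusted p = 0.000998, and −1.86 with PVN array 3, adjusted p = 0.0129). Its values in PVN and on SON arrays 1 and 4 were under the array medians. With 64 added its difference was −0.61, so the size is loosely determined. Npff, the precursor of neuropeptide FF, had 50.02, 86.7, 92.6 and 89.1 in PVN, against 110.1, 119, 162 and 145 in SON (log2 difference −0.76, SE 0.179, adjusted p = 0.00565). Cholecystokinin (Cck), the riser, had 264, 390.4, 525 and 439.98 in PVN, against 241, 255, 256 and 235 in SON (log2 difference 0.68, SE 0.182, adjusted p = 0.014). Npff and Cck did not pass with PVN array 3 (adjusted p = 0.0745 and 0.0746).

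Genes of the secretory granule moved in both directions. Of 17 measured, 4 rose and 3 fell, the same numbers as with PVN array 3 (median −0.07). Scg2, secretogranin II, a granule core protein, had 2047, 1949, 2157 and 1994 in PVN, against 722, 800.3, 734 and 684 in SON (log2 difference 1.48, SE 0.107, adjusted p = 1.68e-09, and 1.23 with PVN array 3, adjusted p = 0.000376). Furin, a prohormone-cleaving protease of the Golgi, had 98.8, 79.7, 119 and 109.8 in PVN, against 51.9, 58.7, 49.8 and 51 in SON (log2 difference 0.95, SE 0.133, adjusted p = 2.77e-05). Scg3, secretogranin III, had 1468, 1384, 1145 and 1238 in PVN, against 808, 909, 960.4 and 784 in SON (log2 difference 0.61, SE 0.131, adjusted p = 0.00275). These 3 were higher in every PVN pool. Chromogranin A (Chga) rose by 0.58 (adjusted p = 0.0145) but no longer passed once PVN array 1 was dropped (adjusted p = 0.0501). On the falling side, Cadps2, which primes granules for release, had 363, 411, 347 and 297 in PVN, against 572, 528, 612 and 597 in SON (log2 difference −0.70, SE 0.163, adjusted p = 0.00527). The other 2 that fell, named after their values were seen, were Pam, the enzyme that amidates the C-terminus of vasopressin, oxytocin and other peptides (−0.53), and Ptprn (−0.36), a granule membrane protein whose call ended with the replicate number as a block (adjusted p = 0.0548) and with any 1 of PVN arrays 2 and 4 and SON arrays 1, 3 and 4 left out. Cpe, the carboxypeptidase that trims prohormone fragments, was the brightest that did not pass (3045, 3055, 3099 and 2841 in PVN, against 4064, 3239, 3820.3 and 3662 in SON).

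Some peptides of neurons that neighbour the PVN were also higher there. Pmch, melanin-concentrating hormone, made in the lateral hypothalamus and zona incerta, had 3736, 3191, 3417 and 2304 in PVN, against 53.4, 70.6, 67.1 and 88.6 in SON (log2 difference 5.51, SE 0.204, adjusted p = 3.11e-14, and 4.81 with PVN array 3, adjusted p = 5.94e-06). Hcrt, the precursor of the orexins, which keep animals awake, had 746, 582, 262 and 241 in PVN, against 27.1, 28, 31.4 and 15.3 in SON (log2 difference 4.06, SE 0.56, adjusted p = 2.19e-05, and 3.42 with PVN array 3, adjusted p = 0.00287; log2 difference with 64 added 2.42). PVN arrays 1 and 2 were at more than double the level of PVN arrays 4 and 5. Npvf, which encodes RFamide peptides of the dorsomedial hypothalamus, had 228, 118, 63.8 and 68.5 in PVN, against 22, 17.8, 17.4 and 24.2 in SON, highest on PVN array 1 (log2 difference 2.38, SE 0.65, adjusted p = 0.0166). That call ended without PVN array 1 (adjusted p = 0.0689) and with PVN array 3 (0.0634). The list had 3 rises and no falls among 7 measured (median 0.53), 2 rises with PVN array 3, and Npy, Pomc and Tac3 were among the 4 that did not pass. PVN array 3 had 259 for Pmch and 41.7 for Hcrt.

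Several transcription factors that pattern the hypothalamus were higher in PVN. Of 19 measured, 7 rose and none fell (median 0.89), and 4 rose with PVN array 3. Leaving out each array in turn gave 5 to 7 rises and at most 1 fall, so some of these calls depended on single arrays. Six6, a homeobox gene of the suprachiasmatic region, the retina and the pituitary, had 64.6, 36.5, 36.9 and 44.8 in PVN, against 0.644, 9.87, 2.82 and 9.25 in SON (log2 difference 3.64, SE 0.613, adjusted p = 0.00023). Its values in SON and on PVN arrays 2 and 4 lay under the median of their arrays, so the size is loosely determined. With 64 added to every intensity the difference was 0.65. Dlx1, a homeobox gene of GABA neurons, had 207, 232, 172 and 162 in PVN, against 49.2, 77.5, 47.5 and 43.3 in SON (log2 difference 1.87, SE 0.293, adjusted p = 0.000106, and 1.65 with PVN array 3, adjusted p = 0.00198). Lhx1, a regulator of suprachiasmatic neurons, had 44.7, 44.7, 38.8 and 45.6 in PVN, against 11, 23, 28.6 and 15.3 in SON (log2 difference 1.26, SE 0.28, adjusted p = 0.00352). Values of Lhx1 in SON and on PVN array 4 were under the array medians too, and with 64 added its difference was 0.37. Six6 and Lhx1 did not pass with PVN array 3 (adjusted p = 0.16 and 0.121). Sim1, which mice need to form both nuclei, and its partner Arnt2 did not pass: Sim1, named after its value was seen, averaged 72.5 ± 10.8 in PVN and 96.8 ± 20.3 in SON, and Arnt2 538 ± 39.1 and 559.9 ± 60.4 (SD, n = 4 each).

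Among 8 genes of the suprachiasmatic nucleus, the circadian clock nucleus in front of the PVN, 4 rose and 1 fell (median 0.69), and 2 of each with PVN array 3. The 4 risers were Calcr, Grp, and Six6 and Lhx1, which were already described among the transcription factors, so this count is not separate from that paragraph. Six6 and Lhx1 did not pass with PVN array 3. Calcr, the calcitonin receptor, had 378, 514, 588 and 484 in PVN, against 54.2, 77.5, 38.1 and 59.7 in SON (log2 difference 3.14, SE 0.24, adjusted p = 4.3e-09, and 2.53 with PVN array 3, adjusted p = 0.00143). Grp, gastrin-releasing peptide, had 98.7, 76.7, 58.1 and 107 in PVN, against 20.8, 14.9, 17.1 and 15.8 in SON (log2 difference 2.29, SE 0.278, adjusted p = 4.09e-06, and 1.96 with PVN array 3, adjusted p = 0.00114). Prok2, prokineticin 2, a clock output peptide, was lower, with 2.64, 6.28, 3.84 and 3.26 in PVN, against 30.9, 12.2, 28.1 and 26 in SON (log2 difference −2.58, SE 0.635, adjusted p = 0.008, and −2.35 with PVN array 3, adjusted p = 0.0181), all under the median of their arrays. Vip, vasoactive intestinal peptide, the best known peptide of that nucleus, did not pass (−0.05, adjusted p = 0.969; named after its value was seen).

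Without an added constant, genes of motile cilia had the 3 largest rises among the named genes: Mlf1, Cimap1b and Ak7. This order did not hold with 64 added to every intensity. Pmch (4.58), Sst (3.97) and Dynlrb2 (3.69) then had larger differences than these 3. Motile cilia are built on an axoneme, a ring of microtubule doublets joined by dynein arms and radial spokes, and in the hypothalamus they are carried by ependymal cells of the ventricle wall. Mlf1, a gene known in ciliated cells, had 294, 287, 295 and 315 in PVN, against 8.57, 0.76, 1.08 and 1.70 in SON (log2 difference 7.33, SE 0.633, adjusted p = 2.49e-08). Cimap1b, a ciliary microtubule-associated protein, had 162, 207, 235 and 223 in PVN, against 0.587, 3.19, 1.01 and 1.55 in SON (log2 difference 7.30, SE 0.571, adjusted p = 5.7e-09). The SON values of both lay far under the median intensity of every array (35.9 to 46.5), so these sizes are loosely determined, and with 64 added they were 2.44 and 2.04. Both passed with PVN array 3, at 6.41 (adjusted p = 8.26e-05) and 5.79 (adjusted p = 0.00248). That array itself had 11.5 for Mlf1 and 1.01 for Cimap1b. Further ciliary or microtubule genes among the 15 largest rises, beside Dynlrb2 and Tmem212 described next, were Ak7 (6.66), an adenylate kinase of cilia, the axonemal dynein heavy chain Dnah1 (5.09), Spaca9 (4.26), Spmip6 (3.96) and Cfap126 (3.84). The SON values of Ak7, Dnah1, Spaca9 and Cfap126 were under the array medians too, and with 64 added their differences were 2.52, 2.34, 1.87 and 1.94. A riser of another kind was Tnnt1 (4.41), a muscle troponin gene, with 319, 277, 332 and 372 in PVN, against 15.6, 20.4, 8.56 and 20.3 in SON, or 2.28 on the log2 scale with 64 added.

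Of other ciliary genes, Dynlrb2 and Tekt1 lay above the median of their arrays in every SON pool, and Tmem212 below it. Dynlrb2, a dynein light chain, had 1428, 1456, 1439.8 and 1627 in PVN, against 49.9, 50.4, 55 and 73.1 in SON (log2 difference 4.73, SE 0.143, adjusted p = 1.11e-15, and 3.71 with PVN array 3, adjusted p = 0.00156). Tmem212, a marker of ependymal cells, had 633, 658, 669 and 716 in PVN, against 25.3, 32.6, 36 and 41.7 in SON (log2 difference 4.34, SE 0.174, adjusted p = 1.17e-13, and 3.48 with PVN array 3, adjusted p = 0.000766), and with 64 added the difference was 2.91. Tekt1, a tektin filament of the doublet, had 299, 281, 319.6 and 309 in PVN, against 59.3, 50.9, 53.1 and 48.6 in SON (log2 difference 2.53, SE 0.177, adjusted p = 1.1e-09, and 1.89 with PVN array 3, adjusted p = 0.00938). In all 4 PVN pools each of these genes was higher than in any SON pool, and the PVN pools lay close to each other. PVN array 3 was at 40.1 for Dynlrb2, 32 for Tmem212 and 32 for Tekt1, for Dynlrb2 and Tekt1 below the lowest SON pool. Foxj1, the transcription factor that switches on motile ciliogenesis, and Rsph1, a radial spoke head, named after their values were seen, rose by 1.90 and 2.05 (adjusted p = 1.11e-06 and 7.31e-05).

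Of 14 ependymal and tanycyte markers 7 rose, 1 fell and 6 did not pass (median 1.76), with 7 rises and no fall when PVN array 3 was included. The 7 were the ciliary ones (Ak7, Dynlrb2, Tmem212, Cfap126, Tekt1, Rsph1 and Foxj1). The tanycyte genes Rax, Dio2 and Gpr50 did not pass (1.03, 1.62 and 0.82; adjusted p = 0.055, 0.0881 and 0.498; named after their values were seen), and Vim, a filament gene of many cell types, fell (−0.90; −0.60 with PVN array 3, adjusted p = 0.168). A wider list of axoneme gene families, taken by symbol after values had been seen and so no independent evidence, had 56 measured members. Of these 39 were higher and 1 lower in PVN (median 1.47), and with PVN array 3 it was 30 and 1, or 22 and 1 when PVN and SON arrays were fitted alone with it. The exception was Tekt5, which had 0.826, 0.452, 1.65 and 0.883 in PVN, against 18.1, 19.2, 17.1 and 11.5 in SON (log2 difference −4.22, SE 0.57, adjusted p = 1.7e-05). All of its values in both nuclei were under the array medians, so this fall rests on small signals and its size is loosely determined. The summed intensity of the 56 members was 9966 to 10707 in PVN pools and 3554 to 3975 in SON pools, and 3565 on PVN array 3.

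RFX transcription factors, which act with Foxj1 on ciliary genes, bind a DNA element called the X-box, of which GTTGCC is one arm. The 250 bases before the start of 4 axonemal or ciliary genes that rose are printed because each holds this letter run once. They are from RefSeq on the GRCr8 build, read 5′ to 3′ on the gene's strand, with the X-box arm in capitals. Mlf1 is at chr2:153958341-153958590 (+), Cimap1b at chr7:122326922-122327171 (−), Tekt1 at chr10:57479122-57479371 (−) and Drc12, a subunit of the dynein regulatory complex named after its value was seen, at chr8:53474409-53474658 (+).
Mlf1: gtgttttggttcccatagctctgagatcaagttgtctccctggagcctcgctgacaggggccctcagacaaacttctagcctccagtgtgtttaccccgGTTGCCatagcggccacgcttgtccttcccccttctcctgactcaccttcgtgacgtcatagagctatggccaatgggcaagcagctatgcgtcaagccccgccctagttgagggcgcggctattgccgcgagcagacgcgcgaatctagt
Cimap1b: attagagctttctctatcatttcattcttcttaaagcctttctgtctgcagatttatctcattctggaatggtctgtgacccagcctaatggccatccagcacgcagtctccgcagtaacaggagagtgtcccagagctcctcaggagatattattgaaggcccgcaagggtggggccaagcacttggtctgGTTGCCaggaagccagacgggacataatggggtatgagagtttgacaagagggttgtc
Tekt1: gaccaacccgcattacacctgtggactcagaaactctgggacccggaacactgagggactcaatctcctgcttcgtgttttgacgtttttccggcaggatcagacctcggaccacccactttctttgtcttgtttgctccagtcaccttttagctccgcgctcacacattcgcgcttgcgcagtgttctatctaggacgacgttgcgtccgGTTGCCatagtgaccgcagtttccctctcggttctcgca
Drc12: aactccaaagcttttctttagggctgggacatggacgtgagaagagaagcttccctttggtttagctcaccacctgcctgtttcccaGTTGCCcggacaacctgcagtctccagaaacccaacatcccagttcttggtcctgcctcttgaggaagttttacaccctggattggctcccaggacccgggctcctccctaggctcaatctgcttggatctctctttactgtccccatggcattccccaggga
The first base of the X-box arm lay 151 bases before the start in Mlf1, 58 in Cimap1b, 39 in Tekt1 and 163 in Drc12. Searched on both strands (GTTGCC or GGCAAC), the X-box arm was in 9.89% of all 33469 promoter windows of that table. It was in at least 1 window of 12 of the 33 axoneme family genes that were higher in PVN and had a window (36.4%), and of 4 of the 14 that were measured and were not higher (28.6%), against 10.7% of all measured genes. Among all 99 axoneme family genes of the table the share was 37.4%. A match is a description of the letters only. Drc12 itself had 386, 313, 331 and 368 in PVN, against 39.7, 67.3, 17.2 and 51.9 in SON (log2 difference 3.16, SE 0.286, adjusted p = 5.08e-08, and 2.47 with PVN array 3, adjusted p = 0.00465).

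Many of the largest falls in PVN were genes of the meninges and of fibrous connective tissue. Of 26 measured, 25 fell and none rose, with a median of −3.04. Ptgds, which makes prostaglandin D and is abundant in the leptomeninges, had 358, 371, 231 and 451 in PVN, against 6152, 5036, 6313 and 4986 in SON (log2 difference −4.01, SE 0.204, adjusted p = 1.03e-11, and −3.24 with PVN array 3, adjusted p = 0.000707). Igfbp2, a binding protein of insulin-like growth factors, had 57.5, 79.1, 10.7 and 55.3 in PVN, against 2454, 1188, 1617 and 710.1 in SON (log2 difference −5.05, SE 0.445, adjusted p = 3.43e-08, and −4.08 with PVN array 3, adjusted p = 0.00176). Every SON pool was far above every PVN pool for both. On PVN array 3 they were 4749 and 1107, in or near the range of the SON pools.

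Col1a2, a chain of type I collagen made by fibroblasts, had 21.3, 16.7, 28.1 and 31.9 in PVN, against 1046, 435, 763 and 274 in SON (log2 difference −4.53, SE 0.284, adjusted p = 1.87e-10, and −3.36 with PVN array 3, adjusted p = 0.0112). Lum, lumican, a proteoglycan of collagen fibrils, had 22, 23, 19.9 and 25 in PVN, against 538, 333, 461 and 250.2 in SON (log2 difference −4.07, SE 0.188, adjusted p = 1.57e-12, and −3.27 with PVN array 3, adjusted p = 0.000762). Slc6a13, a transporter of GABA and taurine in leptomeninges, had 7.24, 1.89, 23.3 and 2.89 in PVN, against 303, 105, 185 and 136 in SON (log2 difference −4.92, SE 0.527, adjusted p = 6.91e-07, and −4.00 with PVN array 3, adjusted p = 0.00256). The PVN pools were under the array medians for these genes, so the fall in each is loosely determined in size. Further falls among the 15 largest were Coch (−4.18), which encodes cochlin, Ogn (−4.01), Fmod (−3.36) and Aebp1 (−3.64), all of the extracellular matrix, and the transporters Slc13a4 (−4.37, sulfate) and Slc6a20a (−3.73, proline). The chemokine gene Ccl5 (−3.32) and the interferon-induced Ifitm1 (−3.31) were among them too. Foxc1, a transcription factor of meningeal development, was the member that did not pass, at 19.6, 9.04, 36.6 and 28.2 in PVN, against 40.4, 24.4, 28.5 and 31.6 in SON.

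With PVN array 3 in the fit, 22 of the 26 still passed as lower (median −2.28). When PVN and SON arrays were fitted alone with PVN array 3, an analysis added after the data were seen, 7 passed. The summed intensity of the list was 1479.5 to 1699.6 on the PVN arrays, 17835 on PVN array 3, and 11293 to 21755 on the SON arrays. The SON pools differed among themselves in step: SON array 1 was highest for 24 of the 25 fallen genes and SON array 4 lowest for 21. Leaving out any 1 of the 8 arrays left the count at 25.

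Contractile genes of smooth muscle, the cells of arterial walls, were lower in PVN as well. In a list of 14 added after values had been seen, 11 were lower in PVN and none higher (median −1.56). Tagln, transgelin, had 3.16, 1.39, 2.51 and 7.59 in PVN, against 397, 146, 285 and 88.3 in SON (log2 difference −6.00, SE 0.576, adjusted p = 1.28e-07, and −4.54 with PVN array 3, adjusted p = 0.0106). Tpm2, beta-tropomyosin, had 7.41, 4.91, 3.58 and 5.05 in PVN, against 318, 162, 219 and 107 in SON (log2 difference −5.19, SE 0.312, adjusted p = 9.7e-11, and −3.97 with PVN array 3, adjusted p = 0.00488). The PVN values of Tagln and Tpm2 lay far under the array medians, so these sizes are loosely determined. With 64 added the differences were −1.98 and −1.87. Myh11, the smooth muscle myosin heavy chain, had 40.6, 60.1, 52.5 and 75.8 in PVN, against 244, 147, 214 and 111 in SON (log2 difference −1.60, SE 0.223, adjusted p = 2.65e-05) and did not pass with PVN array 3 (adjusted p = 0.121). For these 3 genes SON array 1 was highest and SON array 4 lowest of the SON pools. With PVN array 3 the list had 4 falls, and none when PVN and SON arrays were fitted alone with it. The summed meningeal genes were high in the same pools, and their part in these values was not tested.

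Of 36 collagens, laminins and integrins, 19 fell and 2 rose (median −0.74), against 8 and 1 with PVN array 3 and none when PVN and SON were fitted alone with it. Nid1, nidogen of basement membranes, had 114, 134, 146 and 126 in PVN, against 603, 443, 591 and 596 in SON (log2 difference −2.08, SE 0.113, adjusted p = 2.43e-11, and −1.59 with PVN array 3, adjusted p = 0.00465). Col3a1, of reticular fibres, had 30.2, 33.4, 57.8 and 33.9 in PVN, against 620.4, 334, 479.9 and 217 in SON (log2 difference −3.34, SE 0.224, adjusted p = 5.48e-10, and −2.53 with PVN array 3, adjusted p = 0.00748). Lama2, a laminin chain, had 4.95, 34.7, 26.2 and 14.8 in PVN, against 158, 78.1, 112 and 64.8 in SON (log2 difference −2.58, SE 0.357, adjusted p = 2.29e-05, and −1.95 with PVN array 3, adjusted p = 0.0243).

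**Figure D2:**
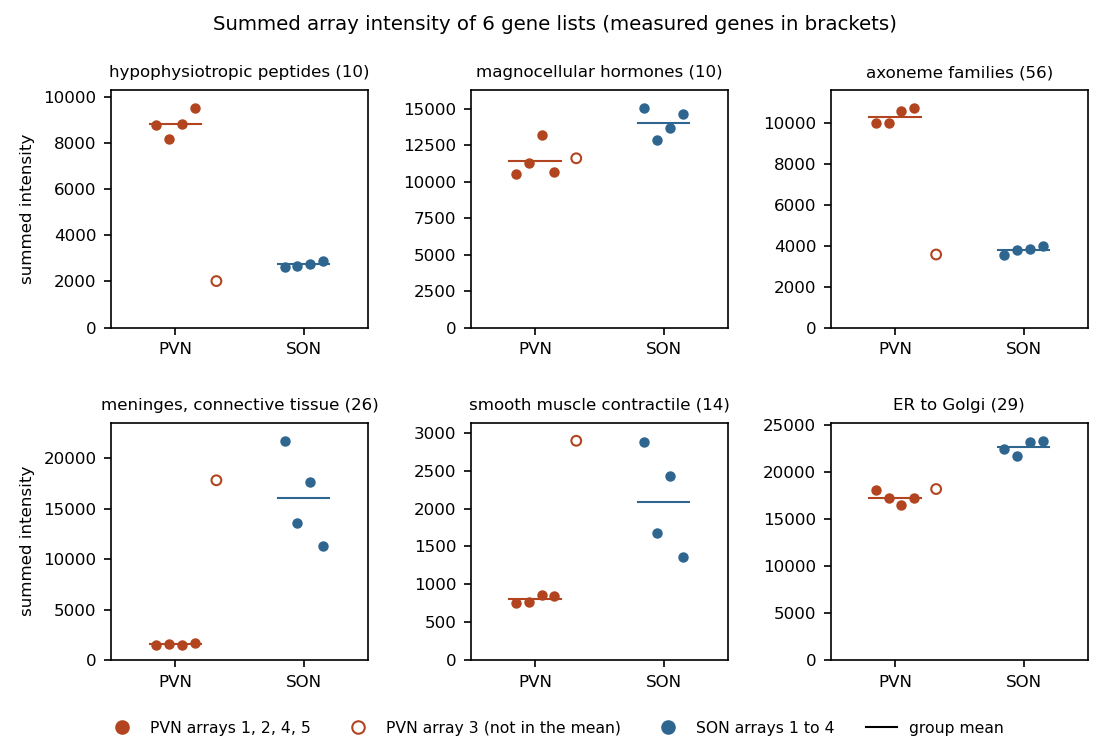
Summed intensity per pool over the measured members of 6 gene lists, on linear axes from 0, with PVN left, SON right and bars at the mean of 4 pools. PVN array 3 (open circle) lay at or near the level of the SON pools for the axoneme families, the meningeal list and the smooth muscle list, and below them for the hypophysiotropic peptides.

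Part of the genes of the endoplasmic reticulum and early Golgi, where prohormones are translocated and folded, were lower in PVN by small amounts. Of 29 measured, 12 fell and none rose (median −0.40), and 8 fell with PVN array 3. Sec61b, a subunit of the translocon, had 942, 1248, 824 and 1118 in PVN, against 1491, 1698, 1880.1 and 2036 in SON (log2 difference −0.78, SE 0.194, adjusted p = 0.00898). P4hb, a protein disulfide isomerase, had 902, 783, 729 and 838 in PVN, against 1331, 1051, 1256 and 1228 in SON (log2 difference −0.57, SE 0.123, adjusted p = 0.00277, and −0.59 with PVN array 3, adjusted p = 0.00283). Dnajb9, a chaperone partner induced by unfolded protein, had 580.1, 513, 428 and 550.3 in PVN, against 765, 769.7, 848 and 766 in SON (log2 difference −0.60, SE 0.131, adjusted p = 0.0032). Hspa5, the main folding chaperone, named after its value was seen, fell by 0.41 (adjusted p = 0.0414), but did not pass with the replicate block (adjusted p = 0.103), with PVN array 3 (0.0583), or without any 1 of PVN arrays 2, 4 and 5 and SON arrays 1, 3 and 4, while the brightest member, Spcs1 of the signal peptidase, did not pass (−0.09).

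This list was sensitive to the fit. With the replicate number as a block 7 fell, and 7 fell without any 1 of PVN arrays 2, 4 and 5 or SON array 1, whereas 19 fell without PVN array 1 or with the values as deposited. The summed intensity did not overlap, at 16418 to 18101 in PVN and 21657 to 23282 in SON, and PVN array 3 was at 18157, above the other PVN pools. This was not particular to the list. Sums were also lower without overlap for cytosolic ribosomal proteins (32243 to 35301 in PVN, 46473 to 47665 in SON). The same held for the respiratory chain (37008 to 42723 in PVN, 45836 to 49921 in SON). Cytosolic ribosomal proteins had a similar median (−0.47), but 1 of 17 passed, Rpl14 (−0.47, adjusted p = 0.0409), and it did not with the block (adjusted p = 0.0937) or with PVN array 4, PVN array 5 or any 1 SON array left out. That count was 7 without PVN array 1, 16 with the values as deposited and 14 with 64 added. None of 32 respiratory chain genes passed (median −0.16); at the level of all genes, 4243 had an unadjusted p under 0.05.

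Among receptors for peptides and amines more members passed as higher than as lower in PVN, where 8.55% of all genes passed as higher and 8.19% as lower. Of 35 peptide receptors, 7 rose and 2 fell (median 0.32), 6 and none with PVN array 3. 1 of the 7 did not pass with PVN array 3 (limma adjusted p = 0.0903) or with the replicate block (0.122). Nor did it pass with any 1 of the PVN and SON arrays left out. Beside Calcr, Npy1r, the Y1 receptor of neuropeptide Y, had 104, 113, 142 and 132 in PVN, against 16.6, 24.8, 21 and 12.5 in SON (log2 difference 2.76, SE 0.249, adjusted p = 4.98e-08, and 2.32 with PVN array 3, adjusted p = 0.000466). Avpr1a, the V1a vasopressin receptor, had 26.7, 25.2, 20.2 and 21.3 in PVN, against 1.48, 2.03, 1.76 and 0.81 in SON (log2 difference 4.02, SE 0.634, adjusted p = 0.000109, and 3.73 with PVN array 3, adjusted p = 0.000766). All of its values were under the array medians, and with 64 added the difference was 0.42. Npr1, the receptor of atrial natriuretic peptide, had 5.92, 6.64, 8.81 and 8.87 in PVN, against 51.7, 32.5, 50.1 and 9.46 in SON, and its fall (log2 difference −1.99, SE 0.53, adjusted p = 0.0141) was lost with SON array 1 or 3 left out and with PVN array 3 (adjusted p = 0.197).

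Of 28 receptors for monoamines, histamine and acetylcholine, 6 rose and none fell (median 0.37), 5 with PVN array 3. Hrh3, a presynaptic histamine receptor, had 125, 103, 117 and 128 in PVN, against 35.5, 39.9, 62.3 and 36.5 in SON (log2 difference 1.49, SE 0.216, adjusted p = 4.18e-05, and 1.32 with PVN array 3, adjusted p = 0.00129). Adra2a, the alpha-2A adrenergic receptor, had 172, 128, 138 and 118 in PVN, against 87.5, 63.4, 55.6 and 52.1 in SON (log2 difference 1.13, SE 0.216, adjusted p = 0.000877, and 1.00 with PVN array 3, adjusted p = 0.00668). Hrh1, the H1 histamine receptor, had 135, 122, 108 and 101 in PVN, against 79.1, 75.2, 54.3 and 84.4 in SON (log2 difference 0.69, SE 0.16, adjusted p = 0.00508, and 0.66 with PVN array 3, adjusted p = 0.00968). Among 12 steroid, leptin and insulin receptors 2 rose and 2 fell, and none passed with PVN array 3. Thrb, the thyroid hormone receptor that mediates feedback on Trh, had 197, 198, 193 and 193 in PVN, against 131, 129, 126 and 114 in SON (log2 difference 0.66, SE 0.162, adjusted p = 0.00793).

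Genes of inhibitory transmission were higher in part. Of 7 for GABA and glycine synthesis and transport, 3 rose and none fell (median 0.64), also with PVN array 3. Slc32a1, the vesicular transporter of GABA, had 468, 356, 254 and 214 in PVN, against 133, 187, 106 and 107 in SON (log2 difference 1.26, SE 0.323, adjusted p = 0.0106, and 1.21 with PVN array 3, adjusted p = 0.0175). Gad1, which makes GABA, had 1702, 1343, 956 and 924 in PVN, against 554, 929.7, 449 and 513 in SON (log2 difference 1.03, SE 0.275, adjusted p = 0.0139), with 1 PVN pool just under the highest SON pool, and it no longer passed with PVN array 1 or SON array 3 left out. Gabbr2, a subunit of the GABA-B receptor, had 774, 619, 607 and 655 in PVN, against 253, 278, 258 and 238 in SON (log2 difference 1.38, SE 0.122, adjusted p = 3.61e-08, and 1.32 with PVN array 3, adjusted p = 3.53e-06). Gabrb2, of the GABA-A receptor, was lower, at 287, 446, 470.1 and 384 in PVN, against 546, 723, 659 and 673 in SON (log2 difference −0.72, SE 0.122, adjusted p = 0.000262). The difference of Gabrb2 was of opposite sign when averaged with its other probe set, which was dim (13 in PVN, 6.69 in SON on average) and did not pass. Of 18 GABA and glycine receptor subunits 4 rose and 1 fell, with and without PVN array 3.

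Of 22 glutamate receptor subunits, 3 rose and none fell (median 0.35), also with PVN array 3. Without that array 16.7% of all genes passed, 8.55% as higher and 8.19% as lower, and the passing share of the subunits was no larger. The 3 were Grik1 (76 ± 3.11 in PVN, 36.7 ± 4.33 in SON), Gria2 (567 ± 54.8 and 318 ± 55.8) and Grik4 (34.2 ± 5.80 and 20.7 ± 5.73, SD, n = 4 each). Of 42 potassium channel genes 3 rose and 4 fell, shares near those of all genes, and 3 of each with PVN array 3. Kcnmb4, the beta-4 subunit of the large-conductance calcium-activated channel, had 299, 343, 297 and 344 in PVN, against 663, 619, 673 and 580.1 in SON (log2 difference −0.97, SE 0.127, adjusted p = 1.16e-05, and −0.89 with PVN array 3, adjusted p = 0.000267). Kcnd3, an A-type channel, had 250.05, 219, 187 and 221 in PVN, against 310.1, 337, 405 and 376 in SON (log2 difference −0.69, SE 0.149, adjusted p = 0.00268). Of 35 sodium, calcium, HCN and TRP channel genes 4 rose and 2 fell, a passing share near that of all genes, and 3 and 1 with PVN array 3. Scn7a, a sodium channel that senses extracellular sodium, had 111, 118, 108 and 141 in PVN, against 56.3, 75.5, 46.5 and 45.6 in SON (log2 difference 1.13, SE 0.163, adjusted p = 3.88e-05, and 0.97 with PVN array 3, adjusted p = 0.00233).

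Markers of neurons as such did not all go one way. Of 18 pan-neuronal genes 4 rose and 1 fell (median 0.09), with 4 falls without PVN array 1 or with the values as deposited, and 3 rises and no fall with PVN array 3. Gap43, a growth cone protein, had 2113, 1887, 1781 and 1769 in PVN, against 892, 1160.2, 753 and 785 in SON (log2 difference 1.10, SE 0.16, adjusted p = 4.21e-05, and 1.03 with PVN array 3, adjusted p = 0.000382). Elavl2, a neuronal RNA-binding protein, had 679, 681, 597 and 663 in PVN, against 830.2, 924, 934 and 1173 in SON (log2 difference −0.54, SE 0.132, adjusted p = 0.00781), and did not pass with PVN array 3 (adjusted p = 0.0864). Of 40 axon guidance genes 11 rose and 2 fell (median 0.16), 9 and none with PVN array 3. The ephrins and their receptors carry contact signals between cells. The ligand gene Efnb3 had 305, 326, 399 and 297 in PVN, against 166, 159, 135 and 116 in SON (log2 difference 1.22, SE 0.175, adjusted p = 3.65e-05), and Efna5, another, had 145, 177, 179 and 189 in PVN, against 62.8, 97.6, 93.1 and 54.9 in SON (log2 difference 1.21, SE 0.156, adjusted p = 8.87e-06). The receptor gene Ephb1 had 74.4, 61.3, 57.1 and 74.8 in PVN, against 24.2, 23.7, 31.8 and 13.8 in SON (log2 difference 1.58, SE 0.256, adjusted p = 0.000153). All 3 were higher in every PVN pool.

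All 4 measured genes of cholinergic neurons were lower in PVN (median −2.89). Slc5a7, the high-affinity choline transporter, had 29.2, 11.3, 31.1 and 22.7 in PVN, against 135, 200.4, 111 and 162 in SON (log2 difference −2.74, SE 0.442, adjusted p = 0.000143). Chat, the enzyme that makes acetylcholine, had 13.1, 16.9, 3.72 and 1.82 in PVN, against 87.7, 68.5, 68.2 and 81.8 in SON (log2 difference −3.60, SE 0.536, adjusted p = 5.75e-05). The PVN values lay under the array medians. On PVN array 3 both exceeded every SON pool, at 296 and 148, and with that array Slc5a7 did not pass (adjusted p = 0.0623) while Chat did (−2.67, adjusted p = 0.0372), so that 1 of 4 passed.

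Of 11 catecholamine and tetrahydrobiopterin genes, 3 rose and 1 fell, and 1 each with PVN array 3. Th, tyrosine hydroxylase, the first enzyme of catecholamine synthesis, had 391, 224, 201 and 251 in PVN, against 524, 433, 524 and 425 in SON (log2 difference −0.87, SE 0.226, adjusted p = 0.0124), a fall that ended without PVN array 4 (adjusted p = 0.0524). Ddc, the next enzyme, had 152, 141, 137 and 143 in PVN, against 67.4, 60.5, 60.4 and 71.7 in SON (log2 difference 1.15, SE 0.135, adjusted p = 2.55e-06). Of 13 heat shock genes 1 rose and 3 fell, and 2 fell with PVN array 3. Hspb1, a small heat shock protein, had 54.9, 52.7, 41.4 and 42.1 in PVN, against 445, 309.7, 316 and 311 in SON (log2 difference −2.83, SE 0.171, adjusted p = 1.08e-10, and −2.31 with PVN array 3, adjusted p = 0.000572), without overlap. Of 12 calcium-binding proteins, 4 rose and 1 fell, 2 and 1 with PVN array 3. Hpcal4 had 649, 610.2, 587 and 474 in PVN, against 236, 174, 201 and 183 in SON (log2 difference 1.56, SE 0.246, adjusted p = 0.000109, and 1.32 with PVN array 3, adjusted p = 0.00542). S100a10 had 206, 208, 213 and 209 in PVN, against 409, 439, 516 and 437 in SON (log2 difference −1.09, SE 0.131, adjusted p = 3.7e-06, and −0.90 with PVN array 3, adjusted p = 0.00244).

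Astrocyte genes were divided. Of 16 measured, 6 fell and 2 rose (median −0.13), and 5 and 2 with PVN array 3. Aldh1l1, a folate enzyme used as an astrocyte marker, had 140.1, 128, 149 and 113 in PVN, against 754, 635, 632 and 726 in SON (log2 difference −2.36, SE 0.296, adjusted p = 6.23e-06, and −2.02 with PVN array 3, adjusted p = 0.00119). Gfap, the astrocytic filament, had 1592, 1265, 1440.1 and 1726 in PVN, against 4185, 3248, 3806 and 3838 in SON (log2 difference −1.31, SE 0.168, adjusted p = 8.03e-06, and −1.11 with PVN array 3, adjusted p = 0.00179). The gap junction gene Gjb6 had 232, 134, 111 and 128 in PVN, against 790.3, 382, 522 and 318 in SON (log2 difference −1.70, SE 0.271, adjusted p = 0.000131), but the other astrocytic connexin, Gja1, did not pass, with 2521, 2121, 2206 and 2203 in PVN, against 2605, 2699, 2608 and 2221 in SON (−0.15).

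Microglial and macrophage markers had 6 falls and no rise among 19 (median −0.39), 3 with PVN array 3. Mrc1, the mannose receptor of perivascular and meningeal macrophages, had 22.1, 34, 32.7 and 22.5 in PVN, against 98.7, 82.6, 86.8 and 70.2 in SON (log2 difference −1.61, SE 0.221, adjusted p = 2.08e-05, and −1.18 with PVN array 3, adjusted p = 0.0348). Cd74, the invariant chain of antigen presentation, had 29.9, 35.8, 46.2 and 38.9 in PVN, against 198, 143, 145 and 116 in SON (log2 difference −1.97, SE 0.188, adjusted p = 1.13e-07) and did not pass with PVN array 3 (adjusted p = 0.08). Ctss, a lysosomal protease bright in microglia, did not pass (1247, 957, 922 and 953 in PVN, against 969.8, 1070.4, 862 and 830.1 in SON). Of 22 endothelial and pericyte markers 8 fell and 1 rose (median −0.36), 4 and 1 with PVN array 3. This list shares Acta2, Tagln, Myh11 and Mylk with the smooth muscle list, so its count is not separate from that one. Vwf, von Willebrand factor of larger vessels, had 53.9, 59.3, 75.5 and 57.4 in PVN, against 375, 165, 214 and 154 in SON (log2 difference −1.79, SE 0.23, adjusted p = 8.87e-06; −1.19 with PVN array 3, adjusted p = 0.107). Cldn5, a tight junction gene of brain endothelium, did not pass (507, 491, 476 and 504 in PVN, against 750.2, 498, 583 and 498 in SON).

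A blood gene was lower too. Hbb, beta-globin of red cells, had 543, 534, 453 and 395 in PVN, against 981, 1364, 826 and 1141 in SON (log2 difference −1.14, SE 0.236, adjusted p = 0.00197), and PVN array 3 had 1514, above every SON pool, so that the call ended with it (adjusted p = 0.137). The part of blood, vessels and meninges in the other falls was not tested. Of 17 myelin genes 2 fell and none rose, where 16.7% of all genes passed, and none passed with PVN array 3. The brightest, Mbp, did not pass, with 2169, 2060.4, 1867 and 1893 in PVN, against 2816, 2729, 2666 and 2772 in SON (log2 difference −0.45, SE 0.158, adjusted p = 0.0664). Of 9 choroid plexus markers 1 rose and 1 fell, and none passed with PVN array 3. Ttr, transthyretin, the defining gene of that tissue, did not pass (−0.41, adjusted p = 0.469; named after its value was seen).

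In further lists 2 to 5 members passed, where 16.7% of all genes did. Forebrain neurons outside the hypothalamus had 3 rises of 17, with and without PVN array 3, and thalamic neurons had 2 rises and 1 fall of 10 (2 and none with it). Synaptic vesicle genes had 4 rises and 1 fall of 26 (4 and none with it), and oligodendrocyte precursors 1 rise and 3 falls of 6 (1 and 1 with it), so that most of these 6 passed without that array. The nitric oxide and cGMP list had 2 falls of 13, 1 with the replicate block and none with PVN array 3. Immediate early genes had 2 rises of 17, 4 with the block, and 1 rise and 1 fall with PVN array 3. Blood and anterior pituitary genes had 1 rise and 2 falls of 9, 1 of each with the block and none with PVN array 3.

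**Figure D3:**
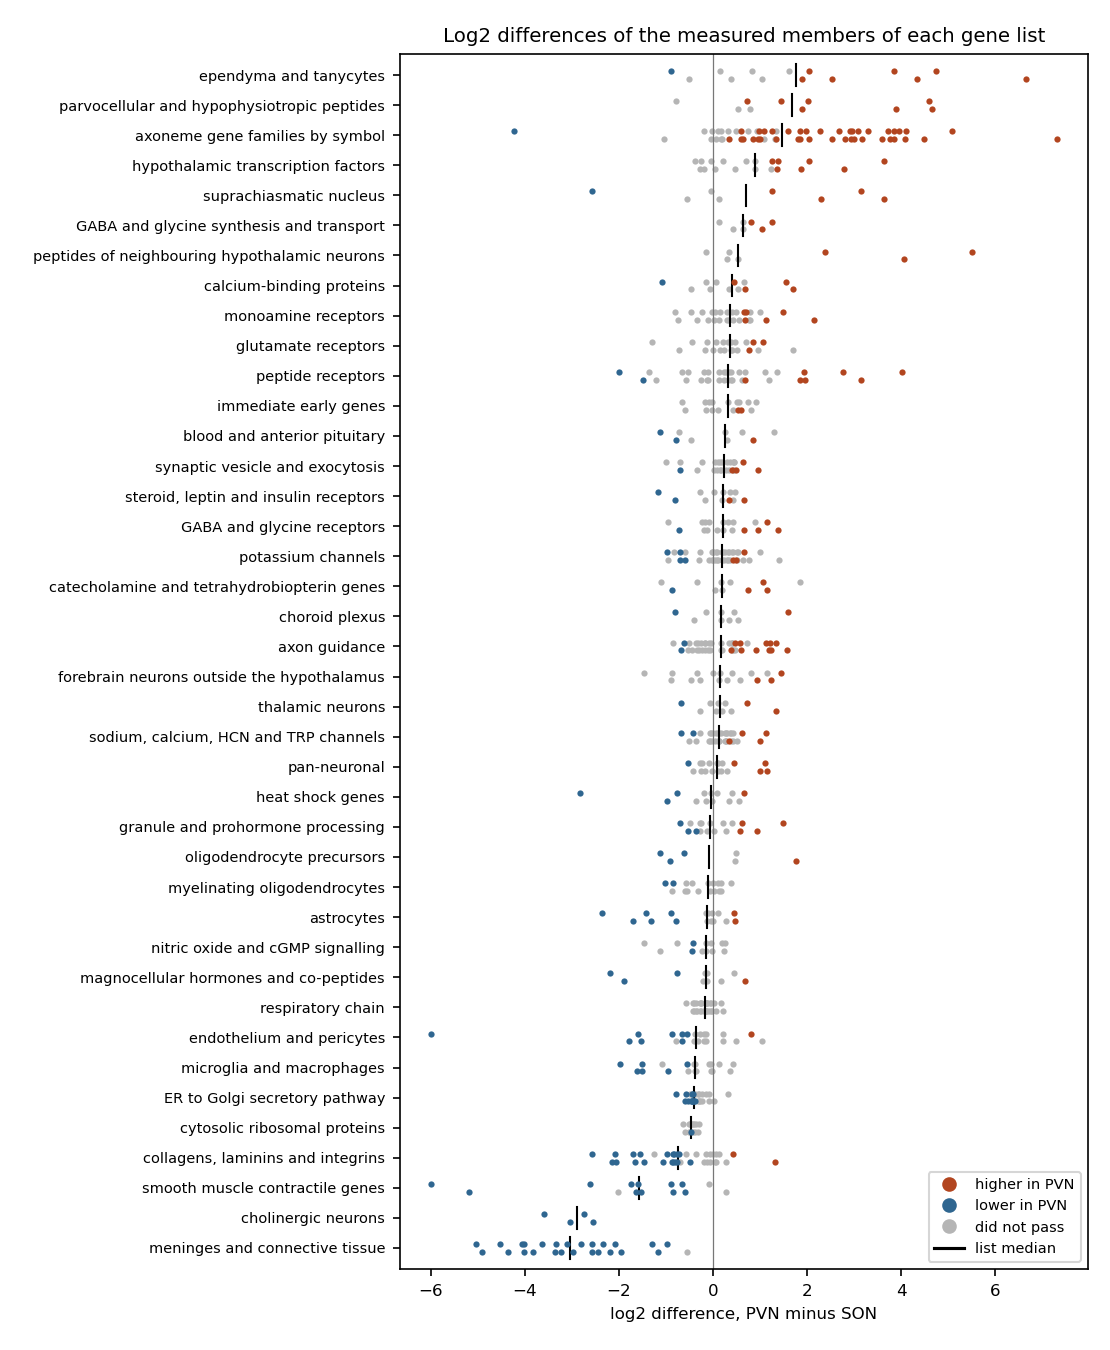
Log2 difference, PVN minus SON, of each measured member of the 38 lists and of the 2 lists added after values were seen (axoneme families and smooth muscle), 1 point per gene, ordered down the page by the list median (bar). Ependymal, hypophysiotropic and axonemal lists stood at the top with medians of 1.76, 1.67 and 1.47, the cholinergic and meningeal lists at the bottom with −2.89 and −3.04, and most others lay near the median of 0.02 over all genes.

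Against the rest of the series, the 15 largest rises were also higher in every PVN pool than in any of the 5 pools of the rostral ventrolateral medulla and the 5 of the neurointermediate lobe from SHR rats. The 15 largest falls were brighter in every SON pool than in any medulla pool, and 9 of them than in any lobe pool. These are descriptions of genes picked by their difference between PVN and SON. All 30 passed with PVN array 3 and with 64 added to each intensity. The sizes of the rises were 3.84 to 7.33, or 1.87 to 4.58 with 64 added, and those of the falls at least 3.31, or 1.64 to 3.79.

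Where a gene that passed had further probe sets above the median probe set, 474 of 546 (86.8%) differed in the same direction, 198 of them passing, and 6 passed in the opposite direction. PVN array 3 lay nearer to the SON mean than to the mean of the other PVN pools for 619 of the 754 genes that passed with a difference of at least 1 (82.1%). That array was left out for its likeness to SON and the 754 genes were called without it, so this count describes the array and tests nothing.

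**Figure D4:**
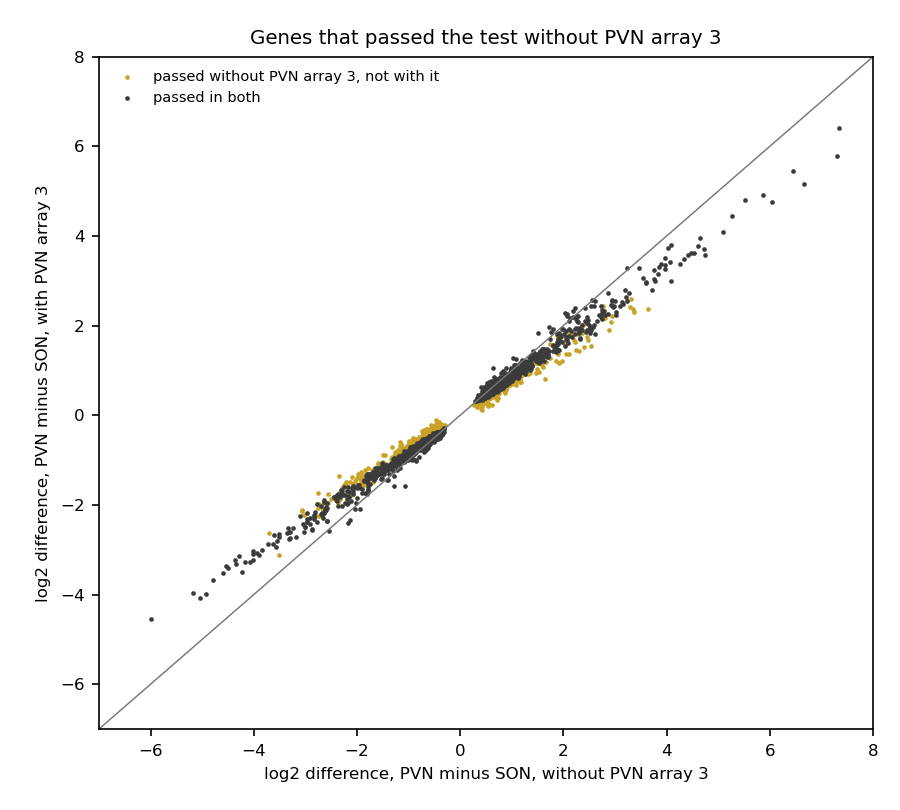
Log2 difference, PVN minus SON, of the 2381 genes that passed without PVN array 3, each point 1 gene, without that array on the horizontal axis and with it on the vertical axis. The 1480 dark points passed both ways, the others did not pass with PVN array 3, and most of the large differences lie closer to 0 with it than without it (grey line: equal).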

How the data were processed

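RNA from pools of SHR PVN and SON tissue was measured on Affymetrix rat arrays. The authors deposited intensity, 1 linear signal per probe set. GCOS 1.2 is among the tools of the submitters' processing notes, with no settings given there. The 2% trimmed mean of each array was 100.02 to 100.03. The log2 of the intensity was taken without a pseudocount or filter, and each array was shifted to a common median. The fit (lmFit and eBayes with an intensity trend, limma 3.58.1, R 4.3.3) held 18 SHR arrays, 4 PVN, 4 SON, 5 of the neurointermediate lobe and 5 of the rostral ventrolateral medulla, which share 1 estimate of the spread. Log2 differences are PVN minus SON, and p-values were adjusted (Benjamini-Hochberg) over all 31042 probe sets that are not controls. "Passed" means an adjusted p under 0.05, and "rose" and "fell" mean that a gene passed as higher or lower in PVN. Symbols came from the array's annotation table: 20826 probe sets had 1 gene, 436 several and 9780 none. Each gene's value is that of its probe set with the highest mean over the 8 arrays.

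The arrays, gene lists and genes were chosen with earlier results of these data known. The naming rule took 7 genes always (Crh, Trh, Sst, Ptgds, Pdyn, Avp and Oxt), the 15 largest rises and falls among genes that passed without overlap and with a mean of at least 200 in the brighter nucleus, and at most 5 members of each list that passed and the brightest that did not. Replicate numbers come from the titles. Deviations of same-numbered PVN and SON pools from their group means correlated at 0.183, 0.116 and 0.107 over the 18625 brighter probe sets (numbers 1, 2 and 4). Differently numbered pools ranged from −0.147 (PVN array 1 with SON array 4) to 0.101 (PVN array 5 with SON array 4). These values do not settle whether same-numbered pools were paired, and a fit with the number as a block was compared. Other alternatives were values as deposited, quantile normalization, pseudocounts of 16 and 64, a filter at the 40th percentile, no trend, PVN and SON arrays alone, PVN array 3 included, the mean of a gene's probe sets, and each array left out in turn. The fit was tested on simulated data. Group means and SDs are of the deposited intensity.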

Additional observations from a re-analysis of the deposited data

Results flagged for a closer look

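In 13 of 250 groups of 4 pools, over the genes named here, 1 pool lay apart from the other 3 by Dixon's ratio of its gap to the group's range on the log2 scale, past the 95% critical value. Chance flags about 1 in 20 groups (5%). In PVN, array 1 was highest for Pdyn (ratio 0.850, intensity 768 against 586 to 610.3 in the other 3 pools) and Ctss (0.875), and lowest for Npff (0.892, 50.02 against 86.7 to 92.6). PVN array 2 was lowest for Coch (0.838), PVN array 4 lowest for Lhx1 (0.876), and PVN array 5 highest for Dynlrb2 (0.849) and Ptprn (0.856). In SON, array 1 was highest for Hspb1 (0.949, 445 against 309.7 to 315.5) and lowest for Rax (0.931), array 2 was lowest for Nid1 (0.935, 443 against 591 to 603) and Ttr (0.914), and array 3 was highest for Dnajb9 (0.943) and Npy (0.894). For Pdyn, Hspb1 and Nid1 the pool that stood apart did not reach the other nucleus.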

How the results depend on the processing

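The count of genes that passed kept within 1.5 times of 2381, and that of probe sets within 1.5 times of 3937, under each alternative listed for this comparison except the inclusion of PVN array 3. With that array 1532 genes and 2516 probe sets passed, and 589 genes and 978 probe sets when only PVN and SON arrays were fitted, PVN array 3 among them (a setting added with the data in view). Leaving out each array in turn gave 1802 to 2344 genes and 2954 to 3765 probe sets. More genes were lower than higher with the values as deposited (1446 higher, 1544 lower), with quantile normalization (1518 and 1549), with the mean of a gene's probe sets (1087 and 1092), and without PVN array 1 (876 and 1468), PVN array 2 (960 and 1021) or SON array 4 (1004 and 1037); the cause was not tested. Shifts of the median of all genes were under 0.1 throughout.

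Of 103 named genes that passed, all did so with a pseudocount of 16 or 64 and with values as deposited, 102 with quantile normalization, 99 with PVN and SON fitted alone, 95 with the mean of the probe sets, 86 with PVN array 3 and 58 with PVN and SON fitted alone with it. With the replicate block 2122 genes and 3455 probe sets passed. Apart from Ptprn, Hspa5 and Rpl14 the block changed no call of a gene named here. Calls of some other genes that the naming rule took, but that are not named here, did change. The difference of Gabrb2 reversed to 0.23 (adjusted p = 0.789) with the mean of its probe sets. That mean weighs its dim other probe set equally, which averaged 13 in PVN and 6.69 in SON, under the array medians (log2 difference 1.18, limma adjusted p = 0.435). Calls at intensities under the array medians rest on small signals, and no detection calls were used.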
